A study of Mus musculus with 8 samples.

Results

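The olfactory receptor genes of mouse chromosome 2 were followed through the lamina associated domain (LAD) maps of differentiating fat cells. Members were the protein-coding genes of the GENCODE vM1 annotation (build NCBIM37, the same assembly as mm9) that lie on chromosome 2 and carry a symbol starting with Olfr. This gave 286 genes, or 25.7% of the 1113 protein-coding Olfr genes among 22367 protein-coding genes on 21 chromosomes. Of these, Olfr364-ps1, Olfr1025-ps1, Olfr1187-ps1 and Olfr1224-ps1 keep a pseudogene symbol although the annotation lists them as protein-coding, and they were retained.

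Olfactory receptors are G protein-coupled receptors with a single coding exon that bind odorants on the cilia of olfactory sensory neurons. Each neuron is known to express a single receptor gene from a single allele, while the remaining receptor genes sit in silent heterochromatin. The genes lie in large tandem clusters that arose by local duplication. LADs are long stretches of mostly silent chromatin that touch the nuclear lamina, the protein mesh that lines the inner nuclear membrane.

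The series mapped LADs by LaminB1-DamID in 3T3-L1 cells, an established mouse fibroblast line that becomes fat-storing in culture. DamID fuses a protein to a bacterial adenine methylase (Dam), so that GATC sites near LaminB1 become methylated, and free Dam controls for accessibility. Of 4 conditions, the first was untreated preadipocytes at day 0. The other conditions were adipocytes at day 9 that carried a control non-target shRNA, an shRNA against Tmem120a, or shRNAs against Tmem120a and Tmem120b, called the double knockdown here. Tmem120a and Tmem120b encode related proteins of the nuclear envelope. Adipogenesis was induced with insulin, dexamethasone, IBMX and rosiglitazone. Lentivirus carrying Dam or LaminB1-Dam was added to preadipocytes or, for the adipocyte conditions, at day 6 of differentiation. The sample records give 36 h of transduction for every library, whereas the authors' paper states longer times. The preadipocytes are labelled untreated, with no control shRNA, so differentiation and shRNA delivery cannot be told apart between the first pair of conditions. Each condition has 1 LaminB1-Dam and 1 Dam library and 1 list of LADs. There are thus no replicates and no spread to set a difference against, no test between conditions was possible, and differences between lists are descriptions. The lists hold positions alone, so read depth and signal strength are unknown, and the cell type markers and receptor expression were not analysed here.

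As annotated, the members were short genes in compact arrays. Their median gene body was 951 bp, against 20021 bp for the other protein-coding genes of chromosome 2, and it ran from 387 bp in Olfr1187-ps1 to 12181 bp in Olfr140. In 236 members every annotated transcript had 1 exon, and 280 had a coding length of 900 to 1000 bp. The median coding length was 936 bp, close to the median body. Whether untranslated exons are missing from these gene models was not checked. There were 109 members on the plus strand and 177 on the minus strand. GATC, the sequence that DamID reads, occurred 2.48 times per kb of chromosome 2. A median of 3 GATC sites lay in a member's body, and the most was 22. Olfr3, Olfr365 and Olfr366, all in one cluster, held none. Each therefore lies within a single fragment between GATC sites and shares its value with the DNA around the gene. Another 26 members held 1 site.

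Neighbouring members at most 500 kb apart were joined, which gave 3 clusters and left no member outside them. The first ran from Olfr338 to Olfr368 (28 members, chr2:36232298-37188253, 0.956 Mb). The second ran from Olfr987 to Olfr1272 (221 members, chr2:85171054-90122730, 4.95 Mb). The third ran from Olfr1275 to Olfr1318 (37 members, chr2:111070975-111997157, 0.926 Mb). Members were packed most densely in the Olfr987 cluster, with 44.6 per Mb, against 29.3 in the Olfr338 cluster and 39.9 in the Olfr1275 cluster. All 3 were poor in G and C, at 39.2%, 37% and 37.6%, where chromosome 2 as a whole had 42.1%. GATC sites were denser in each of them than along the chromosome, at 3.11, 2.68 and 2.85 per kb. Strand use differed between clusters. In the Olfr338 cluster 20 of 28 members were on the plus strand, whereas in the Olfr987 cluster 148 of 221 were on the minus strand.

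The first question was how many members lay in LADs in each condition. Nearly the whole set did, in every list. A member was counted when any base of its gene body met a LAD. In preadipocytes 285 of 286 members did so (99.7%), where the share over all protein-coding genes was 26.2%. In adipocytes all 286 did so, against 23.3% of all protein-coding genes. With the Tmem120a knockdown the count was 284 (99.3%), against 27.5% of all genes. With the double knockdown it was again 286, against 29.5%. Every member that met a LAD lay in it whole, so the counts were the same when the full gene body was required. Over the 4 lists, 284 members were wholly in a LAD each time. Neighbours share LADs, with 1 LAD per cluster in preadipocytes and adipocytes and up to 4 per cluster in the knockdowns. The counts are therefore the states of a few stretches of DNA and not of 286 separate observations.

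The other genes of the chromosome showed a different level. Of 1559 protein-coding genes on chromosome 2 outside the set, 18.5% met a LAD in preadipocytes, 14.6% in adipocytes, 18.2% under the Tmem120a knockdown and 22.7% under the double knockdown. Olfr genes elsewhere were nearer to the members. Of 827 of them, 88.1%, 87.2%, 87.8% and 86.3% met a LAD in the same order. Chromosome 7, with 240 Olfr genes, gave 91.2%, 95.4%, 91.2% and 85.4%. The 129 Olfr genes of chromosome 9 stood at 97.7%, 99.2%, 98.4% and 96.9%. Smaller sets went both ways. The 65 on chromosome 19 were at 98.5%, 96.9%, 96.9% and 95.4%, and the 36 on chromosome 16 at 97.2% in every list. Lower were the 28 on chromosome 1 at 64.3%, 60.7%, 60.7% and 53.6%. The 24 on chromosome 4 were at 58.3%, 37.5%, 66.7% and 62.5%, and the 9 on chromosome 15 at 55.6%, 11.1%, 44.4% and 66.7%.

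**Figure D1:**
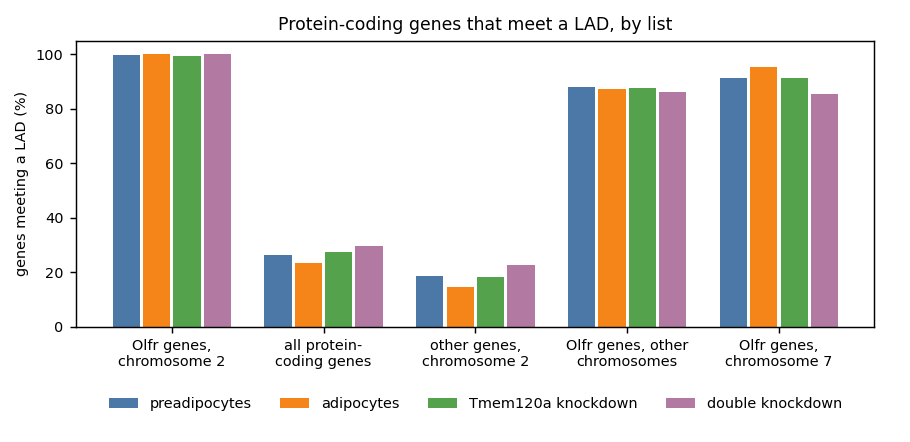
Share of protein-coding genes whose body meets a LAD (vertical axis, %), for 5 sets of genes, with 1 bar for each of the 4 LAD lists. The Olfr genes of chromosome 2 stand at 99.3% to 100% in all lists, while the other genes of the chromosome stand between 14.6% and 22.7%; each bar comes from 1 list, so no error is drawn.

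Cluster by cluster, LADs covered nearly all of the DNA between the receptors as well. Together the clusters were 99.96% in LADs in preadipocytes, 100% in adipocytes, 99.3% under the Tmem120a knockdown and 99.06% under the double knockdown. The rest of chromosome 2 was 39.6%, 38.4%, 38.1% and 39.7% in LADs. The clusters held 8.97%, 9.23%, 9.24% and 8.88% of the chromosome's LAD length in the same order.

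The Olfr1275 cluster was the most uniform, with 1 LAD over its full length in every list. That LAD was 1.96 Mb long in preadipocytes, 2 Mb in adipocytes, 1.98 Mb with the Tmem120a knockdown and 1.91 Mb with the double knockdown. It reached well beyond the first receptor on the low-coordinate side. In the 400 kb next to the cluster there, Ano3, a gene of the anoctamin family, and 3 further protein-coding genes were at 100% in all lists.

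The Olfr987 cluster lay in a single LAD of 5.16 Mb in preadipocytes and 5.22 Mb in adipocytes, which was the longest LAD of chromosome 2 in both lists. With the Tmem120a knockdown 3 LADs met it, the longest of 2.59 Mb, which ranked 5 on the chromosome. With the double knockdown 4 LADs met it. The longest of these, 4.13 Mb, was the longest LAD in that whole list of 6971. The 4 other protein-coding genes inside this cluster, 4833423E24Rik, Pramel7, Pramel6 and Gm4222, were at 100% in all lists.

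The Olfr338 cluster was covered by a single LAD in 3 lists, of 1.03 Mb in preadipocytes, 1.06 Mb in adipocytes and 0.995 Mb with the Tmem120a knockdown. With the double knockdown 3 LADs met it, the longest of 0.703 Mb. Its last member was the single member at a cluster end that fell outside a LAD in any list.

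**Figure D2:**
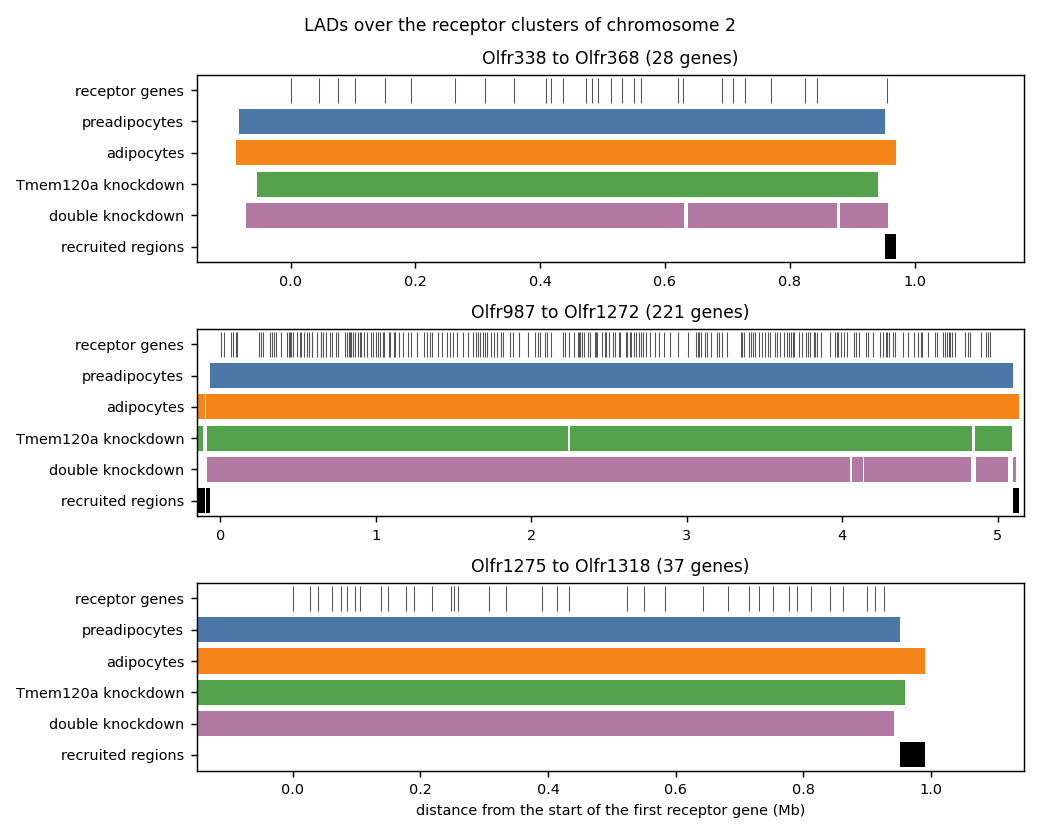
Map of the 3 receptor clusters, with distance from the start of the first receptor gene in Mb on the horizontal axis. Vertical ticks are receptor genes, coloured bars the LADs of each list and black bars the recruited regions; white breaks inside the clusters appear in the knockdown lists alone, and the Olfr1275 to Olfr1318 cluster has no break in any list.

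Members lay at a greater median distance from a LAD end than all genes in LADs did. The distance from a member to the nearest end of the LAD that held it had a median of 973 kb in preadipocytes and 992 kb in adipocytes. It was 553 kb with the Tmem120a knockdown and 654 kb with the double knockdown. The knockdown lists held breaks within the clusters, but medians also fell below the adipocyte value where there was none. In the Olfr1275 cluster, unbroken in every list, the medians were 561 kb in preadipocytes and 600 kb in adipocytes. They were 568 kb there with the Tmem120a knockdown and 551 kb with the double knockdown. Members within 50 kb of a LAD end numbered 2 in preadipocytes, 1 in adipocytes, 10 under the Tmem120a knockdown and 19 under the double knockdown, or 0.702%, 0.35%, 3.52% and 6.64% of those wholly in a LAD. Over all protein-coding genes wholly in a LAD the medians were 129, 177, 93.7 and 73 kb, with 28.2%, 21.2%, 35.7% and 40.4% within 50 kb of an end. Over the Olfr genes of other chromosomes the medians were 218, 242, 153 and 115 kb, with 16.9%, 13.3%, 23.8% and 27.3%. The distances of neighbouring members in 1 LAD are tied to each other, and the differences were not tested.

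Only Olfr368 and Olfr1129 differed in LAD state between lists. Olfr368, the last member of the Olfr338 cluster, is a gene of 985 bp with 1 exon on the plus strand at chr2:37187269-37188253, and its G and C content of 53.2% was the highest among the members. It was 0% in a LAD in preadipocytes, 100% in adipocytes, 0% under the Tmem120a knockdown and 100% under the double knockdown. Its state in the first 3 lists followed where the LAD over the cluster ended. In the double knockdown it lay in a separate LAD of 77.6 kb that held no other member, behind a break of 5.62 kb. With LADs of at least 100 kb alone, it was outside LADs in that list. Relative to the start of the gene, with negative values before it, the LAD end nearest to it lay at -1.89 kb in preadipocytes, 15.7 kb in adipocytes and -12.9 kb with the Tmem120a knockdown. The separate LAD of the double knockdown ended at 3.22 kb. The 40 bases around each of these ends are shown because they mark the GATC sites at which the LADs at this gene stopped. All are from NCBIM37, plus strand, with the GATC at the border in capitals.
Preadipocytes, chr2:37185359-37185398: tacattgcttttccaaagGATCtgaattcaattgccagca
Adipocytes, chr2:37202969-37203008: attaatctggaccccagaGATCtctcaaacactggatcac
Tmem120a knockdown, chr2:37174357-37174396: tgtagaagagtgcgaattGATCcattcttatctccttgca
Double knockdown, chr2:37190465-37190504: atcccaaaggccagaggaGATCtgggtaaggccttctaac
The ends fell at 4 different sites, and the adipocyte and double knockdown ends lay on the far side of the gene.

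Olfr1129 lies in the middle of the Olfr987 cluster, on the plus strand at chr2:87414062-87416187, and is annotated with a transcript of 1 exon and another of 2 exons that share a coding length of 942 bp. It was 100% in a LAD in preadipocytes, adipocytes and the double knockdown, and 0% with the Tmem120a knockdown. There it fell in a break of 12 kb (chr2:87407420-87419453) that held 25 GATC sites, 3 of them in the gene body. Its neighbours Olfr1128 and Olfr1130 stayed in LADs 21.7 kb before the break and 26.9 kb after it. With breaks under 50 kb closed, Olfr1129 no longer differed between lists. The borders of this break are shown because no other member lay inside a break. The capitals again mark GATC on the plus strand of NCBIM37.
Start of the break, chr2:87407399-87407438: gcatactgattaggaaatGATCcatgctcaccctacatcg
End of the break, chr2:87419433-87419472: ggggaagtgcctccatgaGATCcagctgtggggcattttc

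In all, 7 breaks lay wholly inside the clusters. The preadipocyte and adipocyte lists had none, the Tmem120a knockdown had 2 and the double knockdown had 5. These counts depended on length. Breaks of at least 20 kb numbered 1 in each knockdown, none was left in either with breaks under 50 kb closed, and with LADs of at least 100 kb alone there were 2 and 3. The knockdown lists also hold more LADs on chromosome 2 as a whole, 341 and 419, against 225 in preadipocytes and 168 in adipocytes. The part of that difference in the breaks was not tested.

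A single place was open in both knockdowns. The break ran over 22 kb with the Tmem120a knockdown (chr2:90005075-90027114) and over 30.4 kb with the double knockdown (chr2:90002048-90032471). It lay between Olfr1270, 11.9 kb before the longer break, and Olfr1506, 29.3 kb after it, and held the pseudogene Gm13768 and no member. These were the longest breaks of each list in the clusters, and their 4 borders stood at different GATC sites. They are printed because this is the one break of the clusters found in more than 1 list.
Tmem120a knockdown, start, chr2:90005054-90005093: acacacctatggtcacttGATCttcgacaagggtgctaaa
Tmem120a knockdown, end, chr2:90027094-90027133: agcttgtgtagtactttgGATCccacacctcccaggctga
Double knockdown, start, chr2:90002027-90002066: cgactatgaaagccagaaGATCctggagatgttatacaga
Double knockdown, end, chr2:90032451-90032490: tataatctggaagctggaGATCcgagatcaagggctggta
The interval held 3.09 GATC sites per kb in either break, against 2.68 in the cluster. Its share of sequence found once in the genome was low and is given below with the other breaks.

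The other breaks were present with the double knockdown alone. In the Olfr338 cluster a break of 6.25 kb began 2 kb after Olfr358, and Olfr360 followed 51.9 kb after it. A break of 5.62 kb lay between Olfr366 and Olfr368. In the Olfr987 cluster a break of 13.9 kb between Olfr1234 and Olfr1238 held the pseudogene Olfr1235-ps1, and it was sparse in GATC, at 1.08 sites per kb. A break of 8.16 kb followed between Olfr1240 and Olfr1241. Between this pair of breaks lay a LAD of 66 kb that held Olfr1238, Olfr1239 and Olfr1240, so these 3 members kept LAD contact in a short LAD of their own. With LADs of at least 100 kb alone, they were outside LADs in the double knockdown, as Olfr368 was.

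How much DNA can be read at these breaks depends on repeats, since a read that matches several places cannot be assigned to one of them. The share of 32-base words found once in the genome was 86% along chromosome 2, sampled every 50 bases, and 67.3%, 73.5% and 68.8% in the Olfr338, Olfr987 and Olfr1275 clusters. The break around Olfr1129 held 78.2% unique words, and Olfr1129 itself 61.7%. Olfr368 held 100%. The break common to both knockdowns held 2.05% over its 22 kb and 3.22% over its 30.4 kb. Copies of the longer one lie elsewhere. In chr2:90200001-90220000, past the end of the same cluster, 94.3% of positions began a word that also occurs in it. The double knockdown breaks of 6.25, 5.62, 13.9 and 8.16 kb held 77.2%, 33.9%, 94.4% and 37.2%. Of 682 windows of 10 kb in the clusters 13 held under 10% unique words. At least 50% of the window lay in a break for 2 of these 13 and for 7 of the other 669. No break in any list was met by 10 of the 13, of which 4 ran on without interruption from the break common to both knockdowns and 6 lay elsewhere. How repeated reads were treated is not given in the sources used here, and the part of repeats in the breaks was not tested.

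**Figure D3:**
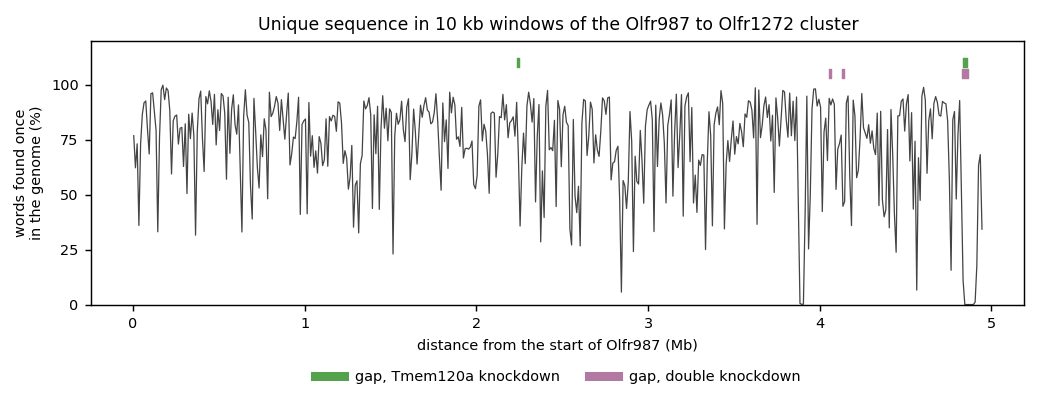
Share of 32-base words found once in the genome (vertical axis, %) in 10 kb windows along the Olfr987 to Olfr1272 cluster (horizontal axis, Mb from the start of Olfr987), with the breaks of both knockdown lists as coloured bars above. The break common to both knockdowns stands over windows near 0%, whereas the break around Olfr1129 and the break of 13.9 kb stand over windows that are mostly unique.

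The clusters had fewer breaks per Mb than other long LADs. Breaks per Mb in the 6.834 Mb of the clusters were 0 in preadipocytes, 0 in adipocytes, 0.293 under the Tmem120a knockdown and 0.732 under the double knockdown. Over the whole adipocyte LADs that hold the clusters, flanks included, they were 0, 0, 0.242 and 0.725. The comparison set was the other 370 adipocyte LADs of at least 926 kb, the length of the shortest cluster, which hold no break in the adipocyte list by construction. They had 0.913 breaks per Mb in preadipocytes, 1.65 under the Tmem120a knockdown and 2.58 under the double knockdown. Of these LADs 35.7% had no break in preadipocytes, 13.2% under the Tmem120a knockdown and 6.49% under the double knockdown. For the 24 of them on chromosome 2 the shares were 41.7%, 12.5% and 12.5%. The same shares of the clusters were 3 of 3, 2 of 3 and 1 of 3. Receptor clusters of the other chromosomes, 36 in number, had 1.01, 0.799, 1.81 and 2.02 breaks per Mb in the 4 lists. The 6 on chromosome 7, which are among the 36, had 1.26, 0.541, 2.71 and 1.98. With 3 clusters and 1 list per condition these rates were not tested, and they carry the dependence on break length given with the counts.

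**Figure D4:**
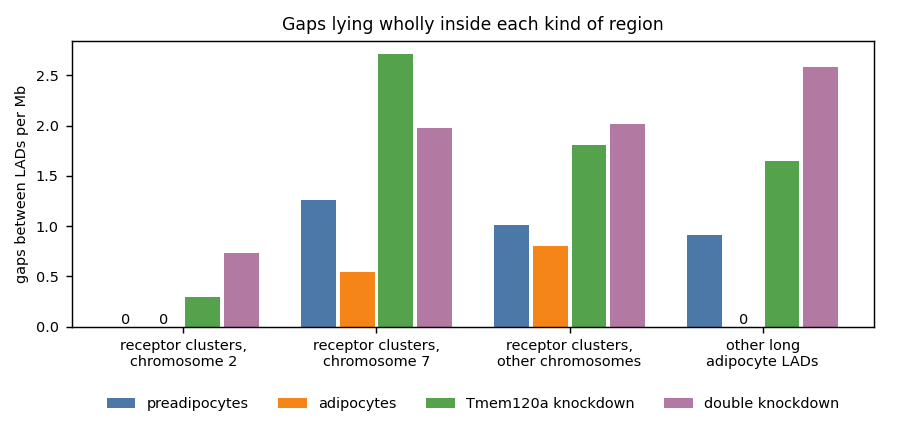
Breaks between LADs per Mb (vertical axis) that lie wholly inside the chromosome 2 receptor clusters, the receptor clusters of chromosome 7 and of all other chromosomes (chromosome 7 included), and the other long adipocyte LADs, with 1 bar per list. The chromosome 2 clusters have the lowest rate in each knockdown list, at 0.293 and 0.732; the adipocyte value of the last group is 0 by construction.

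The LAD ends around the clusters differed between lists, mostly over DNA without members. Where breaks split a cluster, the end is that of the outermost LAD meeting it. Before Olfr338 the LAD reached 81.8 kb beyond the gene in preadipocytes, 87.8 kb in adipocytes, 53.1 kb with the Tmem120a knockdown and 71.7 kb with the double knockdown. Before Olfr987 the same distances were 67.8, 88.7, 87.6 and 82.2 kb, and past Olfr1272 they were 144, 183, 142 and 116 kb. Past Olfr1318 they were 25.8, 64.8, 33.4 and 16.4 kb. Before Olfr1275 the LAD began much further out, at 1005, 1004, 1018 and 972 kb. The end at Olfr368 stopped short of the end of that gene by 2.87 kb in preadipocytes and 13.9 kb with the Tmem120a knockdown, and passed it by 14.7 kb in adipocytes and 2.23 kb with the double knockdown.

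The adipocyte LAD reached furthest at 5 of these 6 ends. Around the other long adipocyte LADs it reached furthest at 185 of 740 ends (25%). This measure was chosen after the values had been seen, so it describes these lists and was not tested.

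**Figure D5:**
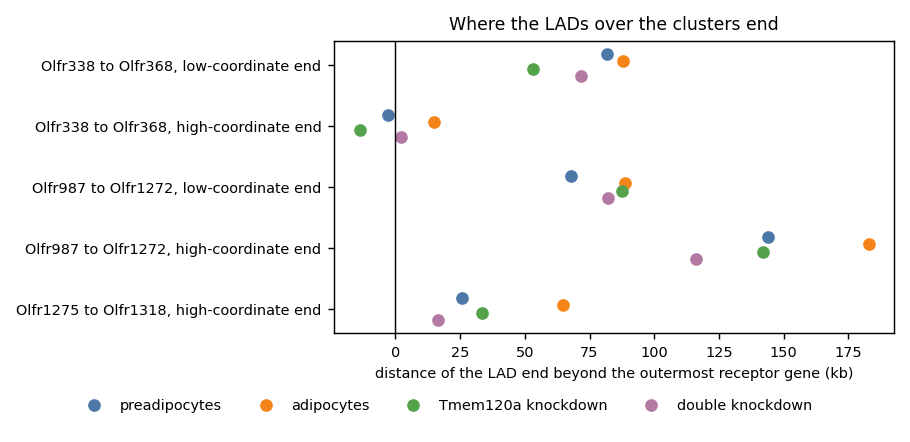
Distance in kb by which the outermost LAD meeting each cluster extends past the outermost receptor gene (horizontal axis, negative where it stops inside), for 5 cluster ends and the 4 lists; the end before Olfr1275, at 972 to 1018 kb, is not drawn. The adipocyte point lies furthest out at all 5 ends drawn, and at the end by Olfr368 the preadipocyte and Tmem120a knockdown points lie below 0.

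The next question was how many members changed state between conditions, set beside the share of all protein-coding genes that made the same change. From preadipocytes to adipocytes no member left a LAD, where 4.81% of all genes did, or 18.3% of the genes that were in one in preadipocytes. Olfr368 entered a LAD, where 1.88% of all genes did. It was the 1 member outside LADs in preadipocytes, so no more could have entered. Of the members in a LAD in adipocytes, Olfr368 and Olfr1129 were outside one with the Tmem120a knockdown (0.699% of members, 1.95% of all genes and 8.37% of the genes in adipocyte LADs). None was outside one with the double knockdown, against 2.1% of all genes and 9.02% of those in adipocyte LADs. The order of the knockdowns depended on short LADs. With LADs of at least 100 kb alone, 2 members were outside LADs under the Tmem120a knockdown and 4 under the double knockdown. With Olfr genes of every biotype, 3 genes were outside in each. The shares of all genes in this paragraph use LADs of every length, and none is given for these alternatives. No member could newly enter a LAD from the adipocyte list, since all were in one. The counts were therefore 0 for the Tmem120a knockdown, where 6.13% of all genes entered, and 0 for the double knockdown, where 8.36% did. Between the knockdowns, 0 members were in a LAD with the Tmem120a knockdown alone (4.28% of all genes, 15.6% of those in its LADs). Olfr368 and Olfr1129 were in a LAD with the double knockdown alone, where 6.36% of all genes were. They were the 2 members outside LADs with the Tmem120a knockdown, so this count was also at its highest. The comparisons with adipocytes share 1 list, so they are not independent of each other.

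The deposited differential regions are built from the preadipocyte and adipocyte lists, so they add no independent evidence. Regions in LADs of preadipocytes alone are called released here and regions in LADs of adipocytes alone recruited. None of the members met any of the 2021 released regions, where 5.76% of all protein-coding genes did. Olfr368 alone met 1 of the 1808 recruited regions, where 3.08% did.

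Within 200 kb of the clusters there were 5 recruited regions and 0 released ones, each recruited region lying at or past a cluster end. The region at Olfr368 (chr2:37185380-37202989, 17.6 kb) was 0% in LADs under the Tmem120a knockdown and 29% under the double knockdown. Before the Olfr987 cluster, a region of 51.9 kb over Lrrc55, which encodes a regulatory subunit of potassium channels, was 57.4% and 0% in LADs in the same order. A region of 20.9 kb nearer to the cluster was 94.8% and 69%. After that cluster a region of 39.2 kb over Ptprj, a receptor tyrosine phosphatase gene, was 0% and 60.1%. The region of 38.9 kb past Olfr1318 was 19.4% and 0%. The knockdowns thus differed in which of these regions stayed in LADs, and no region was fully in a LAD in either.

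Several neighbouring genes close to the clusters lay outside LADs. After Olfr368, the genes Pdcl, Rc3h2, Zbtb6, Zbtb26, Rabgap1, Strbp and Gpr21 were at 0% in all lists, the nearest of them 17.3 kb from the cluster. Past Olfr1318, Lpcat4 at 82.5 kb was at 0% in all lists. Before the Olfr987 cluster, Aplnr, which encodes the apelin receptor, was at 100% in 3 lists and at 0% with the Tmem120a knockdown, as Olfr1129 was.

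Pseudogene relatives mostly lay in LADs too. The annotation holds 63 further Olfr genes on chromosome 2 that are not protein-coding, 57 of them inside the clusters. Wholly in a LAD were 62 of them in preadipocytes, 62 in adipocytes, 60 under the Tmem120a knockdown and 59 under the double knockdown. Olfr334-ps1, before the Olfr338 cluster, was at 0% in every list. Olfr335-ps was at 100% in preadipocytes and adipocytes and at 0% in both knockdowns. Olfr336-ps1 was at 65.3% with the Tmem120a knockdown and 100% in the other lists. Olfr1235-ps1 and Olfr1274-ps were at 0% with the double knockdown alone.

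The genes that serve the receptors were listed by role, 20 in all. Most lay outside LADs, as most protein-coding genes did. Of these 20, 2 met a LAD in preadipocytes, 1 in adipocytes, 2 under the Tmem120a knockdown and 4 under the double knockdown, where the shares of all protein-coding genes were 26.2%, 23.3%, 27.5% and 29.5%. Ano2, the calcium-activated chloride channel of olfactory cilia, was the 1 gene in a LAD in all lists, over 67.5%, 64.4%, 100% and 72.1% of its body. Gnal, which encodes the olfactory G protein alpha subunit, was at 30.4%, 0%, 0% and 47.1%. Ric8b, an exchange factor for that G protein, was at 0%, 0%, 26.7% and 5.7%. Lbr, the lamin B receptor, whose loss of expression goes with the gathering of receptor genes in olfactory neurons, was at 0% in 3 lists and 65.5% with the double knockdown. The other 16 were at 0% in every list. They were the cyclase Adcy3, the channel subunits Cnga2, Cnga4 and Cngb1, the exchanger Slc24a4, Omp, Gng13, the trafficking genes Rtp1, Rtp2 and Reep1, and the transcription regulators Lhx2, Ldb1, Ebf1, Emx2, Atf5 and Kdm1a. Lhx2 lies on chromosome 2 about a megabase past the Olfr338 cluster, and it had no LAD contact.

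Promoter windows of the members were also read, from 250 bases before to 50 after the annotated start, as given by RefSeq on GRCm38.p6. In the gene annotation used above, the median body was 951 bp and the median coding length 936 bp. A start annotated at the coding sequence would place the window off the promoter, and this was not checked. Of the members 238 matched by symbol, with 240 promoters. The letters TAATTA, a core that homeodomain factors such as Lhx2 and Emx2 bind and that reads the same on both strands, occurred in 24.6% of these promoters and in 5.29% of all 32851. Median G and C content was 32.7% in the members' promoters and 52.7% in all. The part of this composition in the motif count was not tested. The letters TCCCNNGGGA, a core bound by Ebf factors that also reads the same on both strands, were in 0% of the members' promoters and 0.904% of all. These matches describe the letters of the window and not binding. No share was computed for the Olfr genes of other chromosomes.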

How the data were processed

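LaminB1-DamID was analysed in 3T3-L1 cells from 8 libraries, 1 Dam and 1 LaminB1-Dam in each of 4 conditions. The authors mapped reads to mm9 (BWA and limma are named in the submitters' processing notes, without versions), took the log2 ratio of LaminB1-Dam to Dam per DpnI fragment, and called LADs by segmentation with DNAcopy. They deposited 4 LAD lists and 2 lists of differential regions. The deposited unit is a position (chromosome, start and end) with no score, so depth and precision are unknown. The abbreviation in a list's name gave its condition. The cut used by the authors for differential regions is not given in full in the sources used here.

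List starts were read as counting from 0 and are printed counting from 1. On chromosome 2, 97.3%, 97%, 98.2% and 98.6% of LAD borders fell at GATC sites of NCBIM37 in preadipocytes, adipocytes, the Tmem120a knockdown and the double knockdown. Interval arithmetic used Python 3.11.15 and numpy 2.4.6, and plots matplotlib 3.10.9. It was tested on simulated intervals with known answers. Clusters joined members up to 500 kb apart, with at least 3 members. A break is a stretch outside LADs wholly inside a cluster. Alternatives changed the overlap rule, the gene position, the biotypes, the LADs used (at least 100 kb), the breaks closed (under 50 kb) and the cluster distance. The genes named were the members whose LAD coverage ranged over at least 50 percentage points, the first and last of each cluster, those in differential regions, those beside the 3 longest breaks per list and the signalling genes. Other genes named were chosen after their values were seen. The members and lists were chosen with earlier results of these data known.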

Additional observations from a re-analysis of the deposited data

How the results depend on the processing

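Of 116 values recomputed under other settings, 98 were unchanged or, for counts, within 1.5 times of the reported count. The other 18 differed, any difference in coverage included. The 24 alternative counts of members in a LAD all stayed within that range. The range is wide for counts this near 286, and the setting with every biotype added 63 genes to the set, so the label says little here. Under the settings that kept the 286 members, the counts ran from 282 to 286. With LADs of at least 100 kb alone, the double knockdown covered 96.99% of the clusters with 3 breaks, and lost 4 members of the adipocyte LADs (Olfr368, Olfr1238, Olfr1239 and Olfr1240), 3 of them in a LAD with the Tmem120a knockdown, while 1 member was in a LAD with the double knockdown and not with the Tmem120a knockdown. With breaks under 50 kb closed, coverage was 99.8% under the Tmem120a knockdown and 100% under the double knockdown, both had 0 breaks, and 1 member, Olfr368, was in a LAD in adipocytes and not with the Tmem120a knockdown, and likewise 1 in the double knockdown and not with the Tmem120a knockdown. Counting breaks of at least 20 kb left 1 in each knockdown. Joining members up to 100 kb apart gave 4 clusters of 285 members, without Olfr368, with coverage of 100% in preadipocytes, 99.48% under the Tmem120a knockdown and 99.11% under the double knockdown. With Olfr genes of every biotype, 3 were in a LAD in adipocytes and not with the double knockdown, and 2 with the Tmem120a knockdown and not with the double knockdown. No paired analysis was possible because each condition has 1 list and no result comes from a test. The lists give no depth or signal, so nothing can be said of how strongly any member touched the lamina.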
